A study of Mus musculus with 2 samples.

Results

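Il4, Il5, Il13, Il9, Csf2, Areg and Arg1, the type 2 cytokine genes together with amphiregulin and arginase-1, were followed as 7 rows among the 22032 genes of a single-cell UMI count table from the mouse embryonic thymus. The rows were taken by gene symbol, and all 7 symbols were present. The samples were DN1 thymocytes sorted by flow cytometry from 5x polychromILC mice, with 1 library of the group E19.5_DN1 and 1 of the group E15.5_DN1, named by embryonic day. Both groups share the strain, the tissue and the sort, the labels list no allele, treatment or number of pooled embryos, and the title and design text of the series name E15.5 alone. The extraction label speaks of a lysis that yields nuclei, while the libraries were made with the 10x 3′ v3 chemistry. Barcodes of the table end in suffix 1 or suffix 2, and no label ties a suffix to a stage, so the values below are given by suffix and the stages were not compared.

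Type 2 cytokines are made by group 2 innate lymphoid cells (ILC2), T helper 2 cells, mast cells and basophils. IL-4 and IL-13 act through receptors that share the IL-4 receptor alpha chain, IL-5 is the main growth factor of eosinophils, IL-9 acts on mast cells and on ILC2 themselves, and GM-CSF, the product of Csf2, acts on myeloid cells. Amphiregulin is an EGF receptor ligand linked to tissue repair, and arginase-1 splits arginine into ornithine and urea and is present in ILC2 and in alternatively activated macrophages. In ILC2, Il5 and Il13 depend on the transcription factor GATA3, and the cells make them in response to alarmins such as IL-33.

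Cells were gated on raw UMIs of genes that are not members. Of 6057 barcodes (3875 of suffix 2 and 2182 of suffix 1, with 25 barcode sequences in both), 5412 passed the filters on genes, mitochondrial share and doublets, with a median of 14078 UMIs. The ILC2 gate (Icos plus Rora at 5 or more UMIs) held 1456 cells, 1231 of suffix 2 and 225 of suffix 1. The NK/ILC1 gate (Xcl1 plus Nkg7 at 10 or more) held 1932 cells and the mast gate (Ms4a2 plus Fcer1a at 5 or more) 18 cells. A progenitor set of 747 cells (Spi1 plus Bcl11a at 3 or more, no other gate) served as a reference for stray transcripts. That it lacks the members was assumed and was not tested. A further 145 cells passed more than 1 gate and 1114 passed none. The 10 ILC2 markers outside the member list and the gate genes summed to 1604 CPM (UMIs of a gene scaled to 1000000 UMIs of the cell set) in the ILC2 gate. They summed to 369.7 CPM in the NK/ILC1 gate (here without the mixed cluster described below) and 201 CPM in the progenitor set. Each of them had UMIs in all 3 sets, and Il2ra was nearly level, at 82.4 CPM in the ILC2 gate and 78.1 CPM in the NK/ILC1 gate. Within the ILC2 gate the sum was 1713 CPM in suffix 2 and 1158 CPM in suffix 1. Cd163l1 made up 256 and 604 CPM of it, Il7r 707 and 210 CPM and Il1rl1 262 and 32.7 CPM, in suffixes 2 and 1. The 8 NK/ILC1 markers that are not gate genes summed to 96.3 CPM in the ILC2 gate, with 60.6 CPM in suffix 2 and 243 CPM in suffix 1, against 992 CPM in the NK/ILC1 gate; cells that passed both gates had been set apart. The 5 progenitor markers other than Spi1 and Bcl11a summed to 238 CPM in the NK/ILC1 gate. They summed to 431 CPM in the progenitor set and 5.78 CPM in the ILC2 gate. Nkg7, a gate gene, stood at 185 CPM in the progenitor set. The NK/ILC1 gate thus carried progenitor transcripts, and their part in the ratios below was not tested. The 8 macrophage markers summed to 6.94 CPM in the ILC2 gate, with Csf1r and Mrc1 at 0. The 10 mast cell or basophil markers that are not gate genes summed to 97.6 CPM there, of which Kit made up 86.3 CPM, with Tpsab1, Prss34 and Gata2 at 0. The 7 T-lineage markers, led by Cd3g, summed to 941 CPM in the ILC2 gate, against 1101 CPM in the NK/ILC1 gate, and T-cell receptor chain genes were not analysed here. A cluster of 550 barcodes, all of suffix 1, carried thymic epithelial keratin transcripts together with cytotoxic ones. It supplied 387 NK/ILC1-gate cells and no ILC2-gate cell, so NK/ILC1 values are given with and without it.

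Il4, Il13 and Il5 lie together on chromosome 11, and their promoters are shown because these 3 neighbours differed widely in how many cells of the same set held them. On GRCm38 the genes span chr11:53602982-53618669 (Il4, minus strand), chr11:53631324-53634702 (Il13, minus strand) and chr11:53720794-53725106 (Il5, plus strand), each with 4 exons in the principal transcript. Il4 and Il13 are 12.7 kb apart, and the DNA repair gene Rad50, which carries the locus control region of the cluster, fills most of the 86.1 kb between Il13 and Il5. Csf2 follows at chr11:54247271-54249667 (minus strand), 522 kb beyond Il5. The other members lie elsewhere, Il9 at chr13:56479277-56482246, Areg at chr5:91139599-91148432 and Arg1 at chr10:24915221-24927484. Each window below runs from 250 bases before to 50 bases after the start of transcription in RefSeq (GRCm38.p6), 5′ to 3′ on the strand of the gene. RefSeq gives 2 windows for Il4, and the one at the start of the longer span is shown. Capitals mark a GATA hexamer, the kind of site that GATA3 binds: the letters GATA with A or T before them and A or G after them, searched on both strands. The Il4, Il13 and Il5 windows lie at chr11:53618616-53618915 (minus strand), chr11:53634653-53634952 (minus strand) and chr11:53720544-53720843 (plus strand).
Il4: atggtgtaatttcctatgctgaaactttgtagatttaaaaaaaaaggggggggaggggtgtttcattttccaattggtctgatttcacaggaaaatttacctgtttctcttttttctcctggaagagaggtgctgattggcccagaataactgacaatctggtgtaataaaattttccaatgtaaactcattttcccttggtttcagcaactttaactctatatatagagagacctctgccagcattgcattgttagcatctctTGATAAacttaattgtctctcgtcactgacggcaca
Il13: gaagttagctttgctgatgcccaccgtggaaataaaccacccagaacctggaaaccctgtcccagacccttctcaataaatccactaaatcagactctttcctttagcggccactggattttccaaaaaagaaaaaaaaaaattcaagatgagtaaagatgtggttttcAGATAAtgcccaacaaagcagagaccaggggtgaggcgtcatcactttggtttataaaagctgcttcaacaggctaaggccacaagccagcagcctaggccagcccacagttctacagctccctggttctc
Il5: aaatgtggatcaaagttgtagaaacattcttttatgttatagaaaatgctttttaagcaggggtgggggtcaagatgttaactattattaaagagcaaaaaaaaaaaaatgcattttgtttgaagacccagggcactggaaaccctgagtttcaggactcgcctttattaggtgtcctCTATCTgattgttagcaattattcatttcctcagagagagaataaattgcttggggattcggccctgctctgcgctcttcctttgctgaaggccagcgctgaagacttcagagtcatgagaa
Each of the 3 windows held 1 such hexamer, at +14 in Il4, -81 in Il13 and -72 in Il5 (there on the other strand) relative to the start. Of 27025 promoter windows, the first listed for each gene, 30.2% hold at least 1. The other Il4 window, chr11:53617289-53617588 (minus strand), held 1 at -80 and is the Il4 window counted among those 27025. The NFAT core GGAAAA, searched on both strands and not overlapping the GATA hexamers, matched 4 times in the Il4 window shown and 1 time in the Il13 window, and not in the other Il4 window or the Il5 window. At least 3 matches were found in 0.422% of the 27025 first-listed windows and at least 1 in 23.6%. These are matches of letters, and binding was not measured.

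Il4 and Il13 transcripts were concentrated in the ILC2 gate. Il4 stood at 57.8 CPM (54.2 to 61.6) in suffix 2 and 39.9 CPM (34 to 46.6) in suffix 1 of the ILC2 gate, with exact 95% Poisson intervals in parentheses. In the NK/ILC1 gate it stood at 2.31 CPM in suffix 2 and 10.9 CPM in suffix 1 (9.3 without the mixed cluster), and in the progenitor set at 3.05 and 6.72 CPM in suffixes 2 and 1. In suffix 2 the NK/ILC1 level was not above that of the progenitor set. The progenitor set held more Il4 than Il13 (0.706 CPM over both suffixes), the reverse of the ILC2 gate. Whether its Il4 is stray transcript was not tested. Over both suffixes the log2 ratio of ILC2 over NK/ILC1 gate was 3.01 (2.82 to 3.21), and 3.32 (3.11 to 3.55) without the mixed cluster. After thinning, 22.5% of ILC2-gate cells, 3.34% of NK/ILC1-gate cells and 2.56% of progenitor cells held a UMI (unthinned 47.1%, 12.2% and 10.0%). Median depths were 12263, 15358 and 26765 UMIs per cell in the 3 sets; the ILC2 gate had the shallowest cells and the largest share.

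Il13 stood at 134 CPM (129 to 140.0) in suffix 2 and 217 CPM (203 to 232) in suffix 1 of the ILC2 gate, the reverse order of Il4. The NK/ILC1 gate held 9.11 CPM in suffix 2 and 26.9 CPM in suffix 1 (20.1 without the mixed cluster), and the progenitor set 0.706 CPM over both suffixes. The log2 ratio of ILC2 over NK/ILC1 gate was 3.05 (2.93 to 3.16), and 3.43 (3.29 to 3.57) without the mixed cluster, 50.7 CPM being the level within that cluster. This ratio depends on how the gates are drawn: its log2 value was 2.30 with the NK/ILC1 gate at 20 UMIs, 1.82 with gates per 10000 UMIs and 2.4 as a mean over cells, higher in the ILC2 gate in each of these cases. After thinning, 32.2% of ILC2-gate cells, 11.2% of NK/ILC1-gate cells and 0.404% of progenitor cells held a UMI (unthinned 49.2%, 23.3% and 1.34%). With 1 library per stage and no map from barcodes to libraries, intervals cover counting error only and no test between conditions was possible.

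**Figure D1:**
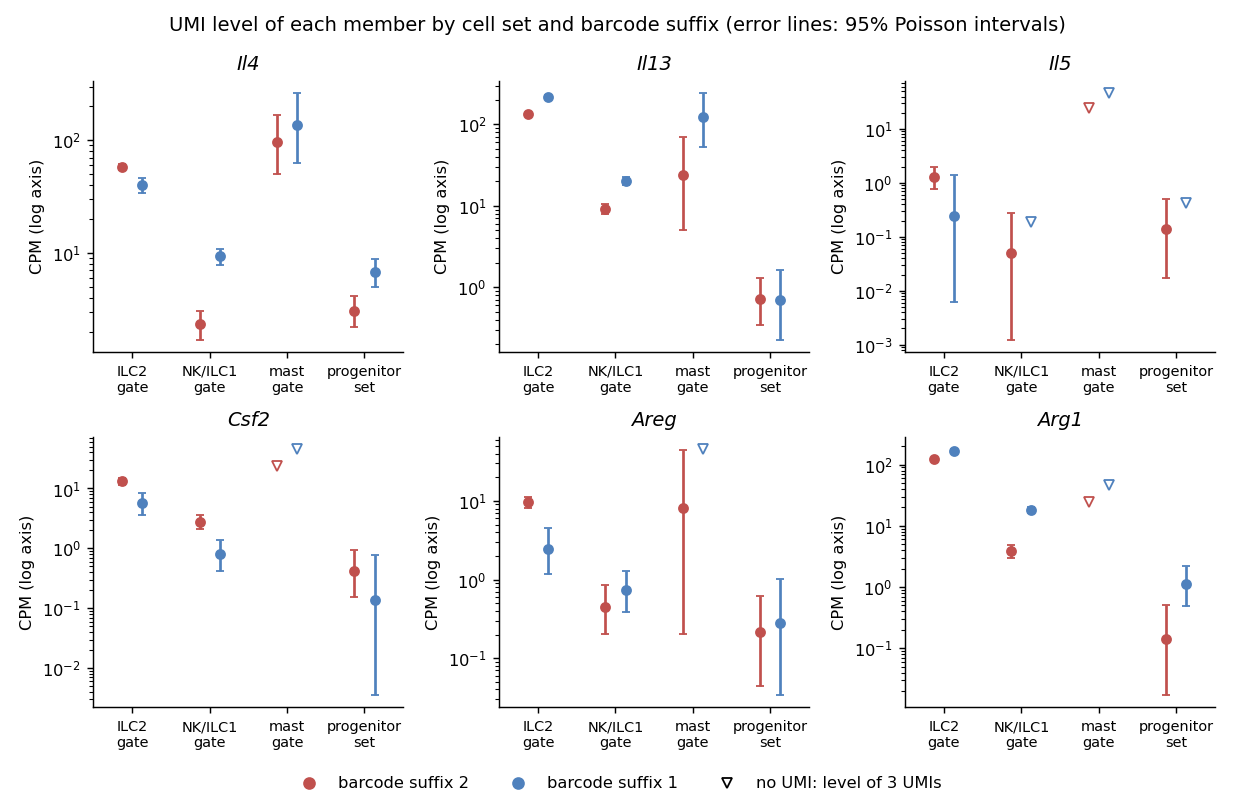
Level of 6 members (CPM, log axis) in the ILC2 gate, the NK/ILC1 gate without the mixed cluster, the mast gate and the progenitor set, suffix 2 left of suffix 1, with 95% Poisson intervals; open triangles mark the level of 3 UMIs where none was found. Arg1 and Il13 in the ILC2 gate sit between 124 and 217 CPM in both suffixes, with points above those of the other sets in their panels, and the wide mast-gate interval of Il13 in suffix 1 reaches them.

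Il5, Il9 and Csf2 were rare. Il5, the eosinophil growth factor, had 29 UMIs in all kept cells, 22 of them in the ILC2 gate (21 in suffix 2 and 1 in suffix 1). That is 1.07 CPM, against 0.048 CPM in the NK/ILC1 gate (2 UMIs) and 0.0941 CPM in the progenitor set (2 UMIs), and 18 ILC2-gate cells (1.24%) had a UMI. The log2 ratio of ILC2 over NK/ILC1 gate was 4.48 (2.45 to 7.61). Il9 had no UMI in any of the 5412 kept cells, which allows a share of cells with a UMI of up to 0.0554% and a level of up to 0.0303 CPM. Il9r, its receptor, was present in the ILC2 gate at 49.5 CPM, against 7.44 CPM in the NK/ILC1 gate without the mixed cluster. Csf2, which encodes GM-CSF, stood at 13.3 CPM (11.6 to 15.2) in suffix 2 and 5.7 CPM (3.62 to 8.56) in suffix 1 of the ILC2 gate. In the NK/ILC1 gate it stood at 2.81 and 1.17 CPM in suffixes 2 and 1, and 2 cells with at least 10 UMIs held 50.9% of the suffix 2 UMIs there. The log2 ratio of ILC2 over NK/ILC1 gate was 2.59 (2.22 to 2.97). After thinning, 5.06% of ILC2-gate cells, 1.04% of NK/ILC1-gate cells and 0% of progenitor cells held a UMI (unthinned 12.8%, 2.17% and 0.937%).

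Areg and Arg1 followed the ILC2 gate as well, at very different prevalence. Areg stood at 9.6 CPM (8.16 to 11.2) in suffix 2 and 2.48 CPM (1.19 to 4.56) in suffix 1 of the ILC2 gate, against 0.60 CPM in the NK/ILC1 gate and 0.235 CPM in the progenitor set. Its log2 ratio of ILC2 over NK/ILC1 gate was 3.77 (3.16 to 4.44), with 4.44 in suffix 2 and 1.73 in suffix 1, resting on 48 ILC2-gate cells with a UMI, of which 1 held 21.3% of the UMIs. After thinning, 1.94% of ILC2-gate cells, 0.313% of NK/ILC1-gate cells and 0.27% of progenitor cells held a UMI (unthinned 3.3%, 0.776% and 0.669%). Arg1 stood at 124 CPM (118 to 129) in suffix 2 and 168 CPM (155 to 181) in suffix 1 of the ILC2 gate, against 3.84 and 20.6 CPM in suffixes 2 and 1 of the NK/ILC1 gate (18.2 in suffix 1 without the mixed cluster) and 0.471 CPM in the progenitor set. Its log2 ratio of ILC2 over NK/ILC1 gate was 3.41 (3.27 to 3.55), and 3.69 (3.54 to 3.85) without the mixed cluster. After thinning, 34.5% of ILC2-gate cells, 7.14% of NK/ILC1-gate cells and 0.674% of progenitor cells held a UMI (unthinned 52.3%, 14.3% and 0.803%). Arg1 was therefore the member found in the largest share of ILC2-gate cells, just ahead of Il13 at 32.2%, and their thinned intervals overlap (32.1 to 37% and 29.7 to 34.6%).

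Among all 10996 genes with enough UMIs, 8.06% were at least 2-fold higher and 12.1% at least 2-fold lower in the ILC2 gate than in the NK/ILC1 gate without the mixed cluster. Of the 7 members, Il4, Il13, Csf2, Areg and Arg1 reached the 50 UMIs asked of a gene and were each at least 2-fold higher, a floor that the ILC2 gate alone can carry. Il5 had 23 UMIs in the 2 sets and Il9 none.

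The mast gate differed from the ILC2 gate in which members it held. Its marker list does not separate mast cells from basophils. The gate held Cma1 at 1530, Mcpt4 at 1350.5, Mcpt8 at 1002 and Prss34 at 670 CPM. Mast-gate cells carried Il4 at 111 CPM (68.6 to 169), against 54.3 CPM in the ILC2 gate, a log2 ratio of 1.03 (0.33 to 1.65), and 11 of 18 mast-gate cells had an Il4 UMI. By suffix, the mast gate held 96.7 CPM of Il4 in suffix 2 (13 cells) and 137 CPM in suffix 1 (5 cells). Il13 was lower, at 58 CPM against 151 CPM (log2 ratio -1.38, and -2.81 without the top cell of each set), and 1 cell held 63.6% of its 11 mast-gate UMIs. Arg1 had no UMI in the mast gate, a limit of 15.8 CPM at 3 UMIs, against 132 CPM in the ILC2 gate. Csf2 and Il5 had none either, but their ILC2-gate levels lie under that limit and no difference was detectable at this depth.

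Cells that passed no gate still held members where a few Icos or Rora UMIs were present. Without the mixed cluster, Il13 stood at 6.01, 91.9 and 111 CPM in ungated cells with 0, 1 to 2 and 3 to 4 Icos plus Rora UMIs. Without the cell with the most Il13 in each bin, the levels were 5.13, 55.2 and 95.9 CPM. Arg1 stood at 12.5, 60.3 and 112 CPM and Il4 at 16, 18.8 and 36.8 CPM in the same order. The 3 bins held 384, 317 and 259 cells, with median depths of 8122, 9951 and 10006 UMIs. The cell with the most Il13 of all, at 130 UMIs, was an ungated suffix 2 barcode with 2 Icos plus Rora UMIs. The gate therefore leaves out some cells with members, and it held 63.8% of the Il13, 65.2% of the Arg1 and 60.5% of the Il4 UMIs of kept cells.

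Receptors and regulators upstream of the members were set beside them for the ILC2 gate against the NK/ILC1 gate without the mixed cluster, where the median log2 ratio over all measured genes was -0.12. Of the receptors for alarmins and other cytokines, 6 of 14 measured genes were at least 2-fold higher and 1 at least 2-fold lower in the ILC2 gate, with a median log2 ratio of 0.93. Il1rl1, which encodes the IL-33 receptor, had 217 against 0.93 CPM, Il7r, the IL-7 receptor, 609.7 against 79 CPM, and Tnfrsf25, the receptor of TL1A, 150.4 against 9.52 CPM. Il1rl1 differed between the suffixes within the ILC2 gate, at 262 CPM in suffix 2 and 32.7 CPM in suffix 1. Of the neuropeptide and lipid receptors, 5 of 10 measured genes were at least 2-fold higher and 1 at least 2-fold lower in the ILC2 gate, with a median log2 ratio of 1.04. Cysltr1, a leukotriene receptor, had 279 against 10.5 CPM, and Ramp1, a co-receptor for the neuropeptide CGRP, 37.2 against 191 CPM. Of the regulators of type 2 cytokine genes, 9 of 21 measured genes were at least 2-fold higher and 2 at least 2-fold lower in the ILC2 gate, with a median log2 ratio of 0.68. Gata3 had 191 against 41.1 CPM, Maf, a factor linked to Il4 transcription, 244 against 28.8 CPM, Junb 597 against 241 CPM and Ets1 236 against 77.3 CPM. Pparg, a lipid-sensing nuclear receptor used by ILC2, had 29.5 against 1.42 CPM. Of the factors that bring about decay of cytokine mRNA, 2 of 6 measured genes were at least 2-fold higher and 0 at least 2-fold lower in the ILC2 gate, with a median log2 ratio of 0.35. Zfp36, which encodes tristetraprolin, had 195 against 42 CPM, while its relative Zfp36l2 had 195 against 314 CPM.

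Genes that neighbour the chromosome 11 cluster, or act downstream of the members, were set beside them in the same way. Of 6 measured neighbours of the cluster, 2 were at least 2-fold higher and 0 at least 2-fold lower, Sept8, a septin gene, at 55 against 15.1 CPM and P4ha2, a collagen prolyl hydroxylase gene, at 5.63 against 0.246 CPM. Rad50, between Il13 and Il5, had 149.9 against 123 CPM, and Kif3a, next to Il4, 25.1 against 21.7 CPM, log2 ratios of 0.28 and 0.21. Il3, the cytokine gene beside Csf2, had no UMI in the ILC2 gate. Of the 9 genes for receptors of the members, 3 were measured and Il9r, given above, was the 1 gene at least 2-fold higher, while Il4ra had 9.9 against 9.25 CPM. Csf2rb, the shared beta chain of the GM-CSF and IL-5 receptors, stood at 0.146 CPM in the ILC2 gate and 612 CPM in the mast gate, and Egfr, the receptor for amphiregulin, had no UMI in the ILC2 gate. Of the other EGF receptor ligands, Ereg and Epgn had no UMI there and none of Egf, Btc, Hbegf and Tgfa reached 1 CPM. For the arginine and polyamine genes, 0 of 6 measured genes were at least 2-fold higher and 2 at least 2-fold lower in the ILC2 gate, with a median log2 ratio of -0.45. Odc1, which makes putrescine from the ornithine that arginase yields, had 62.4 against 137 CPM, and Srm, spermidine synthase, 84.7 against 189.6 CPM. Arg2, the second arginase gene, had no UMI in the ILC2 gate.

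Within the ILC2 gate, Il13 and Arg1 transcripts were unevenly spread over cells. For Il13, 79 cells with at least 10 UMIs held 47.4% of its ILC2-gate UMIs, and the highest cell held 58. For Arg1, 37 cells with at least 10 UMIs held 24.5% of its ILC2-gate UMIs, and the highest held 84. Areg rested on still fewer, since 2 cells with at least 10 UMIs held 29% of its ILC2-gate UMIs. Il4 was flatter, with 64.4% of its positive cells at 1 UMI, against 36.1% for Il13 and 32.4% for Arg1. After thinning each cell to 5000 UMIs, the variance over the mean was 4.16 for Il13, against a median of 1.08 for 428 genes of like mean, of which 1 was higher. It was 4.63 for Areg (2 of 1088 like genes higher), 2.75 for Arg1 (4 of 465), 1.55 for Il4 (44 of 946) and 1.44 for Csf2 (22 of 1157). The 145 cells with the most Il13, 10% of the gate, held 63.9% of its thinned UMIs. A Poisson interval on a summed level understates the error of Il13, Arg1 and Areg most, since their UMIs come in such groups. To a lesser degree it also understates that of Il4 and Csf2.

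Cells with more Ly6a, which encodes the surface antigen Sca-1 found on mature ILC2, held more Il13, Areg and Csf2. Ly6a-high cells (5 or more UMIs) were 790 of suffix 2 and 17 of suffix 1, and Ly6a-low cells 441 and 208, so that a pooled comparison would largely set suffix 2 against suffix 1 and suffix 2 was used. There Il13 stood at 175 CPM (167 to 183) in Ly6a-high and 69.6 CPM (63.3 to 76.4) in Ly6a-low cells, a log2 ratio of 1.33 (1.18 to 1.48). Over both suffixes this ratio was 0.52 (0.42 to 0.63), and the Ly6a-low cells of suffix 1 held 214 CPM. Areg stood at 13.3 and 3.61 CPM in Ly6a-high and Ly6a-low cells of suffix 2 (log2 ratio 1.88, 1.24 to 2.59, and 1.72 without the top cell of each set), and Csf2 at 17.2 and 7.23 CPM (log2 ratio 1.25, 0.77 to 1.75). Il4 differed less, at 67.2 and 42.7 CPM (log2 ratio 0.65, 0.45 to 0.86), and Arg1 least, at 135 and 105 CPM (log2 ratio 0.36, 0.22 to 0.49). The interval for Il5, 1.41 (-0.21 to 3.44), includes 0. Of 9294 genes measured in this comparison, 1.66% were at least 2-fold higher and 1.05% at least 2-fold lower, and Il13, Csf2 and Areg were the members at least 2-fold higher. Median depth was 11252 UMIs in Ly6a-high and 12917 in Ly6a-low cells, so the high set was not the deeper one.

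In suffix 1 the 17 Ly6a-high cells held 279 CPM of Il13, against 214 CPM in the Ly6a-low cells, and the log2 ratio of 0.39 (0.00 to 0.75) turned to -0.49 without the cell with the most Il13 in each set. Across 5 bins of Ly6a in suffix 2, from 0 to 20 or more UMIs, Il13 stood at 49.2, 87.4, 147, 153 and 217 CPM. Il4 stood at 35, 49.5, 60.8, 75.7 and 63.2 CPM, Areg at 2.02, 5.0, 6.34, 17.6 and 14.1 CPM and Arg1 at 102, 108, 136, 124 and 145 CPM in the same order. Il13 was thus higher in each successive bin, though the 2 bins from 5 to 19 UMIs overlap in their intervals, whereas Arg1 spanned 102 to 145 CPM. Of the upstream receptors, Il1rl1 had 320.4 CPM in Ly6a-high and 169 CPM in Ly6a-low cells of suffix 2. Of the 14 measured cytokine receptors, 1 was at least 2-fold higher, Tnfrsf4, which encodes the costimulatory receptor OX40, at 6.37 CPM in Ly6a-high and 2.36 CPM in Ly6a-low cells. Another was at least 2-fold lower, Il18r1, an IL-18 receptor chain, at 76.4 CPM in Ly6a-high and 183 CPM in Ly6a-low cells, beside the 1.66% and 1.05% of all genes given above. Of 20 measured regulators, 0 were at least 2-fold higher.

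**Figure D2:**
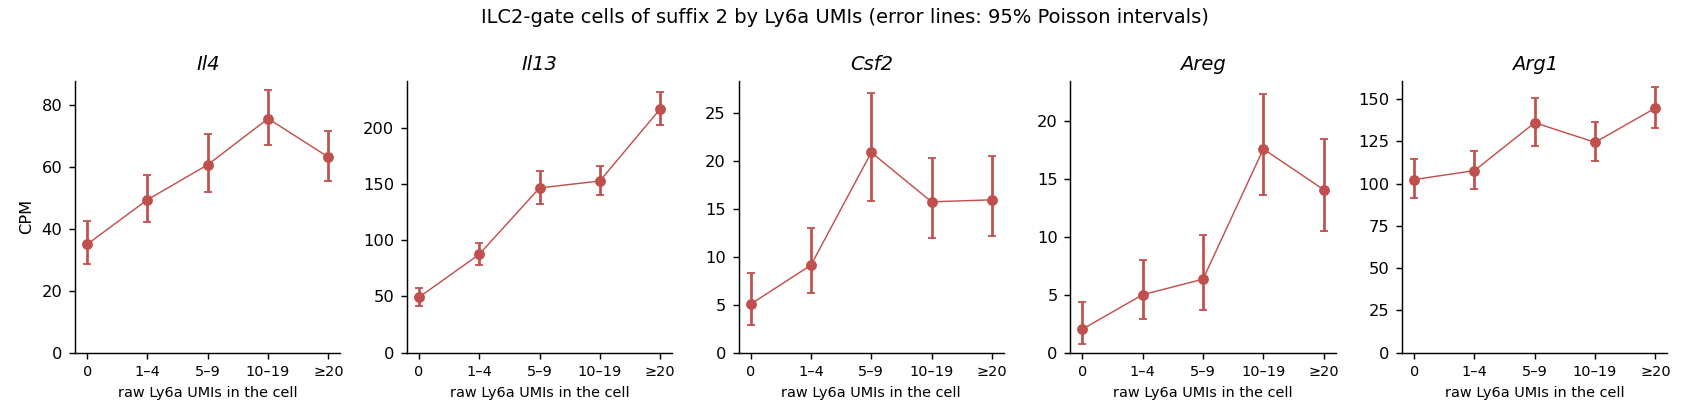
Level of 5 members (CPM, with 95% Poisson intervals) in ILC2-gate cells of suffix 2 by raw Ly6a UMIs in the cell, in 5 bins of 196, 245, 211, 298 and 281 cells. Il13 spans 49.2 to 217 CPM, Arg1 102 to 145 CPM.

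Cycling cells (Mki67 plus Top2a at 3 or more UMIs) had lower CPM, a level relative to all RNA of the cell, for Il4, Il13, Csf2, Areg and Arg1, and the size of the difference set Areg and Csf2 apart. Over both suffixes the 489 cycling and 967 non-cycling cells held 2.44 and 13.5 CPM of Areg, a log2 ratio of -2.46 (-3.15 to -1.83). Csf2 stood at 6.0 and 17.2 CPM (log2 ratio -1.52, -1.97 to -1.09) and Il4 at 36.2 and 70.8 CPM (log2 ratio -0.97, -1.15 to -0.78) in cycling and non-cycling cells. Il13, at 137 and 163 CPM (log2 ratio -0.25, -0.35 to -0.15), and Arg1, at 116 and 147 CPM (log2 ratio -0.33, -0.44 to -0.22), differed least. Il5 had 6 UMIs in cycling and 16 in non-cycling cells, a log2 ratio of -1.28 (-2.92 to 0.14) whose interval includes 0. Of 9590 measured genes, 6.69% were at least 2-fold higher and 2.09% at least 2-fold lower in cycling cells, and Areg and Csf2 were the members at least 2-fold lower. Cycling cells were deeper, with medians of 19310 and 10544 UMIs in cycling and non-cycling cells. Counted as UMIs per cell, Il13 averaged 2.75 in cycling and 1.81 in non-cycling cells, and Arg1 2.34 and 1.63, both higher in cycling cells. Il4 averaged 0.728 and 0.788, Csf2 0.121 and 0.191 and Areg 0.0491 and 0.15 UMIs per cell in cycling and non-cycling cells, all lower in cycling cells.

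The cycling and Ly6a differences were then crossed within suffix 2. Areg stood at 3.39 CPM in cycling and 19.3 CPM in non-cycling Ly6a-high cells (log2 ratio -2.51, -3.46 to -1.69), but at 3.13 and 4.11 CPM in cycling and non-cycling Ly6a-low cells (log2 ratio -0.39, -1.74 to 0.91). Non-cycling Ly6a-high cells thus held 123 of the 159 suffix 2 Areg UMIs of the gate, and 1 cell held 36 of those 123. Il13 kept its Ly6a difference in both states, with log2 ratios of 1.31 (1.08 to 1.55) in cycling and 1.27 (1.08 to 1.48) in non-cycling cells. Il4 had 0.94 (0.55 to 1.34) in cycling and 0.38 (0.13 to 0.62) in non-cycling cells, and Arg1 0.17 (-0.05 to 0.39) and 0.38 (0.21 to 0.56). In Ly6a-low cells of suffix 1, Il13 stood at 190.1 CPM in cycling and 265 CPM in non-cycling cells (log2 ratio -0.48, -0.69 to -0.27).

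**Figure D3:**
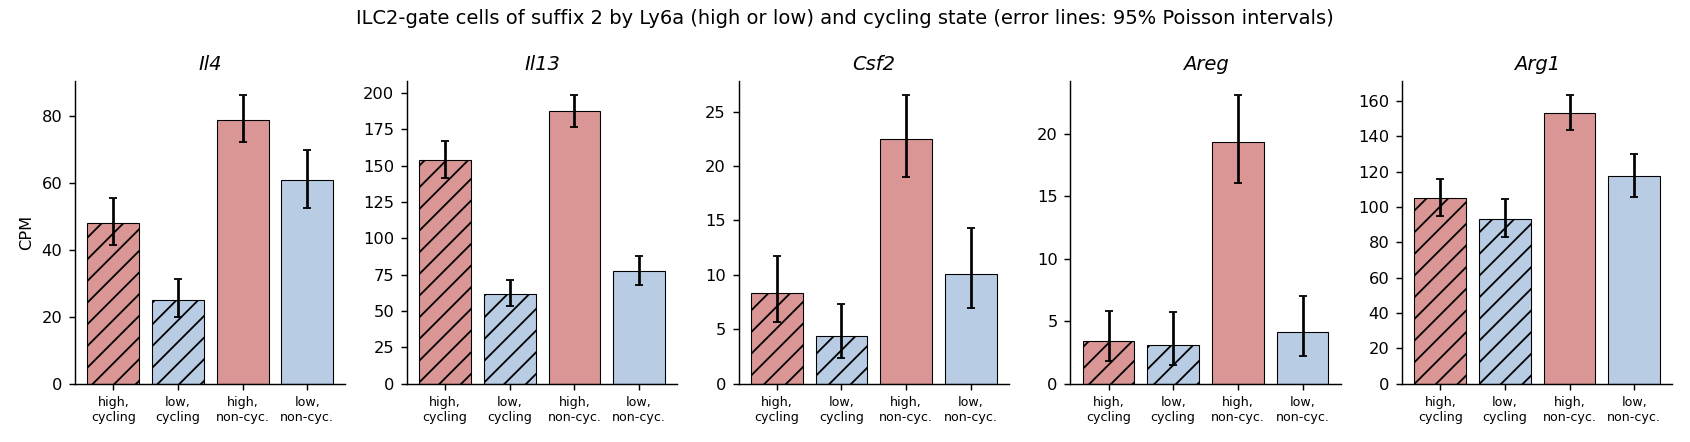
Level of 5 members (CPM, bars from 0, with 95% Poisson intervals) in ILC2-gate cells of suffix 2, split into Ly6a-high (red) and Ly6a-low (blue) and into cycling (hatched) and non-cycling cells. Areg reaches 19.3 CPM in non-cycling Ly6a-high cells and stays under 5 CPM in the other 3 sets.

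Between barcode suffixes, the members of the ILC2 gate differed in opposite directions. Il13 had a log2 ratio of suffix 2 over suffix 1 of -0.69 (-0.81 to -0.58), lower in suffix 2. Arg1 had -0.44 (-0.57 to -0.31), or -0.26 without the top cell of each suffix. In suffix 1, however, 2 cells held 84 and 83 Arg1 UMIs, and the next held 35. No Arg1 ratio without both cells was computed, here or in the Ly6a-low cells below. Their part in the Arg1 difference was therefore not tested. Areg had 1.95 (1.04 to 3.04), or 2.58 without the top cell of each suffix, Csf2 1.23 (0.60 to 1.91) and Il4 0.53 (0.29 to 0.78), all higher in suffix 2. The suffixes differ in Ly6a, so the comparison was repeated in Ly6a-low cells, 441 of suffix 2 and 208 of suffix 1. There Il13 stood at 69.6 CPM (63.3 to 76.4) in suffix 2 and 214 CPM (199 to 229) in suffix 1, a log2 ratio of -1.62 (-1.79 to -1.45), and Arg1 at 105 and 169.6 CPM (log2 ratio -0.69, -0.85 to -0.53). For Il4 (log2 ratio 0.12, -0.17 to 0.42), Csf2 (log2 ratio 0.46, -0.33 to 1.29) and Areg (log2 ratio 0.46, -0.67 to 1.69) the intervals include 0. Of 8553 genes measured in Ly6a-low cells, 3.32% were at least 2-fold higher and 1.98% at least 2-fold lower in suffix 2, with Il13 the 1 member among those lower. In non-cycling Ly6a-low cells Il13 stood at 77.4 CPM in suffix 2 and 265 CPM in suffix 1. The NK/ILC1 markers in the ILC2 gate were higher in suffix 1, as given above, and their part in these differences was not tested.

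For Il4, Il13 and Arg1, thinned cells with 1 of these members were little more likely to hold another. Thinning lowers detection, and missed UMIs can make a link between members look weaker. After thinning to 5000 UMIs, 464 of 1443 ILC2-gate cells had Il13, 498 had Arg1 and 325 had Il4. Il13 was found in 36.6% (31.4 to 42.1) of the cells with Il4 and 30.9% (28.2 to 33.7) of those without, an odds ratio of 1.29 and a log2 odds ratio of 0.37 (-0.02 to 0.76). Il13 and Arg1 were closer still to independence: Il13 was found in 32.7% (28.6 to 37) of the cells with Arg1 and 31.9% (28.9 to 34.9) of those without, an odds ratio of 1.04. In suffix 2 and suffix 1 this odds ratio was 1.01 and 1.3. Within non-cycling cells of suffix 2 it was 0.785 in Ly6a-high and 1.21 in Ly6a-low cells. Arg1 was found in 38.2% (32.8 to 43.7) of the cells with Il4 and 33.5% (30.7 to 36.3) of those without. Without thinning, the log2 odds ratio of Il4 with Il13 was 0.71. All 6 detected members counted, 490 cells had none, 593 had 1, 286 had 2, 67 had 3 and 7 had 4. Independent members would give 460.5, 630.4, 295.6, 53.5 and 2.92 cells in the same order. Cells with none and with 3 or 4 were thus more than under independence, a difference that was not tested.

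Areg and Il5 were found in few thinned cells, so their pairs rest on small counts. The odds ratio of Il5 was 4.25 with Il13 and 3.82 with Arg1, from 4 cells with both in each pair, and 10.4 with Areg, from 1 cell. Areg was found in 3.66% (2.15 to 5.8) of the cells with Il13 and 1.12% (0.562 to 2.0) of those without, an odds ratio of 3.35 from 17 cells with both. On the log2 scale this is 1.74 (0.55 to 2.99), but another random thinning gave 0.78 (-0.40 to 1.92) and no thinning 0.42 (-0.47 to 1.33), both with intervals that include 0. The 79 ILC2-gate cells with at least 10 Il13 UMIs held 53.4 CPM of Areg, against 4.99 CPM in the other 1377 cells, but 6 of the 79 (7.59%) had any Areg and 1 of them held 36 of the 73 UMIs. Without the cell with the most Areg in each set, the levels were 27.3 and 4.53 CPM, and in suffix 1 Areg had no UMI in the 29 such cells. Other genes of the cells high for Il13 had opposite signs in the suffixes and are given by suffix. In suffix 2, Il1rl1 stood at 191 and 266 CPM in the high and other cells, and in suffix 1 at 61.5 and 27.7 CPM. Ly6a stood at 1359 and 895 CPM in suffix 2 and at 39.9 and 51.0 CPM in suffix 1. Odc1 stood at 67.9 and 45.7 CPM in suffix 2 and at 88.2 and 133 CPM in suffix 1. Csf2 stood at 18.3 and 13.1 CPM in suffix 2 and at 1.66 (1 UMI) and 6.41 CPM in suffix 1. Il4 stood at 159 CPM in the cells high for Il13 and 52.9 CPM in the other cells of suffix 2 (log2 ratio 1.59), but at 34.9 and 40.8 CPM in suffix 1 (-0.22, -0.96 to 0.44). The cytokine gene Lif stood at 36.5 and 5.0 CPM in suffix 2 and at 4.99 (3 UMIs) and 9.03 CPM in suffix 1. Arg1 stood at 165 and 129.9 CPM over both suffixes, but at 107 and 126 CPM without the cell with the most Arg1 in each set. By suffix it stood at 115 and 124 CPM in suffix 2 and at 228 and 157 CPM in suffix 1. Without the top cell of each set, Arg1 in suffix 1 stood at 95.8 and 134 CPM.

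The 37 cells with at least 10 Arg1 UMIs were set against the other 1419 in the same way. Il13 stood at 69.0 CPM in the cells high for Arg1 and 136 CPM in the other cells of suffix 2 (log2 ratio -0.98, -1.54 to -0.47). In suffix 1 it stood at 253 and 215 CPM (0.24, -0.12 to 0.58). Without the cell with the most Il13 in each set, Il13 was lower in the high cells of both suffixes. The levels were then 27.6 and 133 CPM in suffix 2 and 123 and 205 CPM in suffix 1. Ly6a stood at 550.1 and 926 CPM in suffix 2, lower in the high cells. In suffix 1 it stood at 23.0 (7 UMIs) and 51.5 CPM, but 38.5% of the 13 high cells and 24.1% of the others had a Ly6a UMI. The neutral amino acid transporter gene Slc38a5 stood at 78.0 and 23.7 CPM in suffix 2, or 46.5 and 21.9 CPM without the top cell of each set. In suffix 1 it stood at 42.8 and 19.8 CPM, but at 7.81 and 14.0 CPM without those cells. Cells high for Il13 had a median of 16348 UMIs against 12081 in the others, and cells high for Arg1 19636 against 12132. The high sets were thus the deeper ones, and the part of depth in these differences was not tested. These sets of high cells and the genes named in them were chosen after their values were seen.

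**Figure D4:**
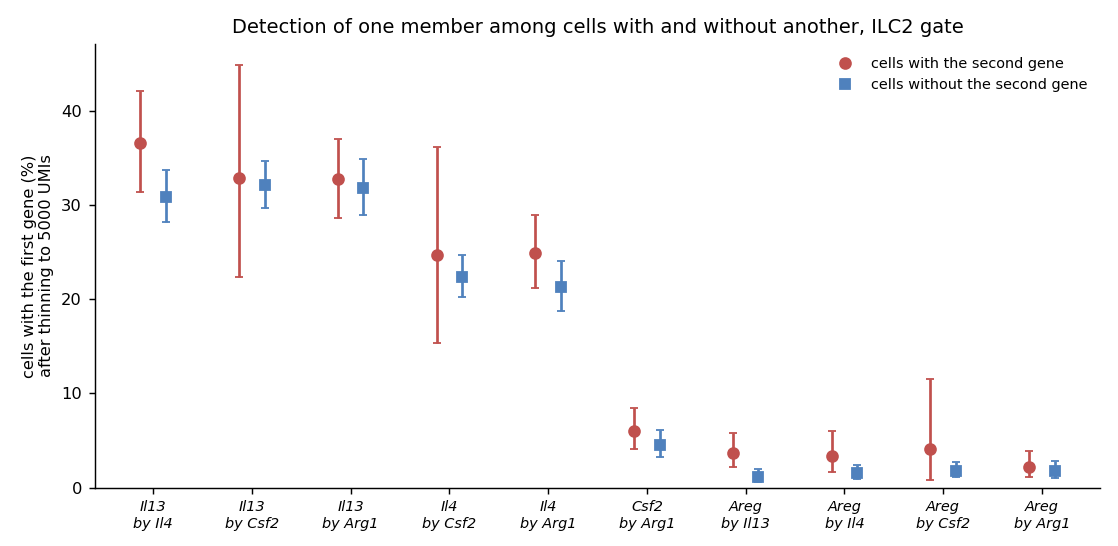
Share of thinned ILC2-gate cells (%) with the first gene of a pair among cells with the second gene (circles) and without it (squares), with exact 95% binomial intervals, for 10 pairs of members. Il13 is at 32.7% and 31.9% of cells with and without Arg1, and Areg at 3.66% and 1.12% of cells with and without Il13.

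All other genes were then compared between ILC2-gate cells with and without a thinned UMI of Il13, Il4 or Arg1, over 7914 genes. In cells with Il13, 0.215% of genes were at least 2-fold higher and 0.809% at least 2-fold lower than in cells without it. Areg led, at 22.4 and 3.47 CPM in cells with and without Il13 (28 cells with a thinned UMI, 1 of which held 17.4% of them), followed by the calcium-binding copine gene Cpne5 (16.8 and 5.72 CPM), the NF-kappaB cofactor Bcl3 (17.2 and 6.74 CPM), the transcription factor Irf8 (39.7 and 16.1 CPM) and the stress gene Gadd45b (69.8 and 28.8 CPM). Cpne5 and Bcl3 had 3 and 5 UMIs in suffix 1, too few for a direction there. The same holds for Areg, with 3 UMIs in cells with and 1 in cells without Il13. These Areg levels come from the random thinning that gave its odds ratio with Il13 above. Another thinning and no thinning gave odds ratios whose intervals include no difference. The lowest ratios were those of Hbb-bs, Tubb2b, Klrb1f, Igfbp4 and Ccl5, the last with a log2 ratio of -1.78 and 35.8% of its UMIs in 1 cell. For Hbb-bs, a red cell globin, 1 cell held 58.2% of the UMIs of the gate. Without that cell, 7 UMIs were in cells with and 269 in cells without Il13. Of the other members, Il4 stood at 73.3 and 50.9 CPM, Arg1 at 144 and 135 CPM and Csf2 at 13.8 and 11.4 CPM in cells with and without Il13. Gata3 stood at 220.3 and 183 CPM, a log2 ratio of 0.27 (0.11 to 0.43), and Maf at 246 and 277 CPM (-0.17; -0.31 to -0.03).

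In cells with Il4, 0.19% of genes were at least 2-fold higher and 1.5% at least 2-fold lower. Areg was again among the 5 highest, at 22.2 and 5.9 CPM in cells with and without Il4, with Hbb-bs, Hba-a1, the interferon-induced Rsad2 (16.6 and 6.62 CPM) and Mindy1 (16 and 7.33 CPM). In suffix 1, Areg had 2 UMIs in cells with and 2 in cells without Il4, too few for a direction. The rank of Hbb-bs turns on 1 cell, without which 5 UMIs were in cells with and 271 in cells without Il4. Without its top cell, Rsad2 stood at 9.26 and 6.62 CPM and Areg at 14.8 and 5.9 CPM in cells with and without Il4. The 5 lowest were Igfbp4, Lrr1, Dynlt1a, the progenitor transcription factor Myb (1.85 and 9.84 CPM) and Zbed3. Il13 stood at 221 and 135 CPM in cells with and without Il4, a larger gap than that in detection. In cells with Arg1, 0.19% of genes were at least 2-fold higher and 0.632% at least 2-fold lower. The highest were the pyrophosphate transporter gene Ank (13.7 and 5.5 CPM in cells with and without Arg1), Trak1, Bloc1s3, the interferon-induced GTPase gene Iigp1 (27.7 and 11.4 CPM) and Apoe, the last with 26.9% of its UMIs in 1 cell and at 8.85 and 7.41 CPM without it. Iigp1 had a log2 ratio of 1.54 in suffix 2 and -0.19 in suffix 1, and Apoe 0.22 (-1.17 to 1.53) in suffix 2 and 1.99 in suffix 1. The lowest were Hbb-bs, Igfbp4, Hba-a1, Zbed4 and Marcks. Il13 stood at 161 and 151 CPM, Il4 at 61 and 56.5 CPM and Areg at 12.0 and 8.25 CPM in cells with and without Arg1, each less than 2-fold different. Il5, with 5 UMIs in cells with and 2 in cells without Arg1, had too few to be compared. Of the regulators, Pparg stood at 46.6 and 25.6 CPM in cells with and without Arg1 (0.86; 0.48 to 1.24), but at 30.2 and 34.1 CPM in cells with and without Il13 (-0.18; -0.60 to 0.23).

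Across 14 cell sets (gates by suffix, and the 4 Ly6a by cycling sets of the ILC2 gate, which overlap the gates), the genes whose level ran most like that of each member were ranked by Pearson correlation of log2(CPM + 10) over 10932 genes. Arg1 ranked first for Il13 and Il13 first for Arg1 (r = 0.98), while the odds ratio of finding both in a single thinned ILC2-gate cell was 1.04. Sys1 and Jund came next for Il13, and Ero1l and Jund for Arg1. Il4 ran most like Socs2 (r = 0.979), Gatsl3 and Tnfsf14. Csf2 ran most like Neu1 (r = 0.964), Rnf114 and Meis3, and Areg most like Ramp3 (r = 0.965), Phf1 and Tnfrsf19. Between members, r was 0.915 for Il4 with Il13, 0.817 for Csf2 with Areg and 0.601 for Il13 with Areg. These values describe 14 sets that share libraries and, in part, cells.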

How the data were processed

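The data were droplet single-cell RNA libraries (10x 3′ v3, per the labels' protocols), 1 library per stage, of sorted DN1 thymocytes. The authors deposited 1 table of raw UMI counts, 22032 genes by 6057 barcodes, not normalized. The submitters' processing notes name the genome build GRCm38 and the tools Cell Ranger, version 3.0.2, and STAR. No label ties the 2 barcode suffixes to stages, so all cells formed 1 pooled sample, suffixes were described, and no test or p-value was computed. Whether nuclei or whole cells were loaded is not settled by the labels.

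Barcodes with under 500 genes or over 10% mitochondrial UMIs were left out (507 of suffix 2 and 35 of suffix 1). Doublets were called per suffix with Scrublet (93, 2.76%, and 10, 0.466%) and left out, leaving 5412. Kept cells had a median of 14078 UMIs. Gates used raw UMIs, and levels are summed UMIs scaled to CPM with exact Poisson intervals, ratios conditional exact intervals and shares Clopper-Pearson intervals, at 95%. All intervals and limits (3 UMIs for a count of 0) cover counting error only. For shares and co-detection, each cell was thinned at random to 5000 UMIs, and 239 shallower kept cells were left out (13 of the ILC2 gate). A gene entered a comparison of all genes with at least 50 UMIs in both sets together, and called means past 2-fold. The 5 genes with the highest and the 5 with the lowest ratio were named for each member found in at least 200 thinned cells, besides the members and the lists. The mixed cluster came from Leiden clustering (2000 variable genes, 30 components, 15 neighbours, resolution 1). Scripts used Python 3.11.15, numpy 2.4.6, scipy 1.17.1, pandas 2.3.3 and scanpy 1.11.5, and the statistics were tested on simulated data.

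The members, the gene lists and the gate thresholds were chosen with earlier results of these data known. The split of ungated cells, the Ly6a bins, the sets of cells with at least 10 UMIs, and the alternatives without the mixed cluster, without the top cells and without shared barcode sequences were chosen after the data were seen.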

Additional observations from a re-analysis of the deposited data

Results flagged for a closer look

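For 3 ratios, the barcode suffixes or gates gave opposite signs, and none of these differences was tested. Arg1 had a log2 ratio of Ly6a-high over Ly6a-low cells of 0.36 in suffix 2 and -0.32 in suffix 1, where the high set held 17 cells. Il4 had a log2 ratio of suffix 2 over suffix 1 of 0.53 in the ILC2 gate and -2.01 in the NK/ILC1 gate without the mixed cluster, at 2.31 CPM in suffix 2 and 9.3 CPM in suffix 1 of that gate. Il4 in the progenitor set, which was assumed to lack it, was 3.05 CPM for suffix 2 and 6.72 CPM for suffix 1. Areg had 1.95 in the ILC2 gate and -0.74 in the NK/ILC1 gate without the mixed cluster, the second from 9 UMIs in suffix 2 and 12 in suffix 1.

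Members were also present in barcodes that no comparison used, above the level of the progenitor set. Barcodes that failed the filters on genes or mitochondrial share held Il13 at 128 CPM, Arg1 at 29.8 CPM and Il4 at 12.5 CPM, against 0.706, 0.471 and 4.28 CPM in the progenitor set. Csf2 and Areg were each at 3.84 CPM there, against 0.33 and 0.235 CPM in the progenitor set. Barcodes called doublets held Il13 at 41.5 CPM, Arg1 at 31.9 CPM, Il4 at 15.8 CPM, Csf2 at 6.19 CPM and Areg at 2.78 CPM.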

How the results depend on the processing

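For the 4 ratios of Il13, all 66 values under the alternatives kept their sign and 44 stayed within the counting interval of the value in the report. The other 22 moved as follows, and the cause was not tested. The log2 ratio of ILC2 over NK/ILC1 gate (3.05) became 2.30 with the NK/ILC1 gate at 20 UMIs, 3.25 at 5 UMIs, 1.82 with gates per 10000 UMIs, 2.4 as a mean over cells, 3.88 in suffix 2 and 3.43 without the mixed cluster. Ly6a-high over Ly6a-low (0.52) became 0.32 with the ILC2 gate at 8 UMIs, 0.31 with the NK/ILC1 gate at 5, 0.37 with the Ly6a split at 2, 0.36 with gates per 10000 UMIs, 1.33 in suffix 2 and 0.39 in suffix 1. Cycling over non-cycling (-0.25) became -0.39 with the NK/ILC1 gate at 20 UMIs, -0.11 with the cycling split at 1, -0.46 with gates per 10000 UMIs, -0.43 in suffix 2, -0.36 in suffix 1 and -0.40 with totals that leave out ribosomal protein and mitochondrial genes. Suffix 2 over suffix 1 (-0.69) became -0.92 with the ILC2 gate at 8 UMIs, -0.47 and -0.99 with the NK/ILC1 gate at 20 and 5, and -0.56 with the reduced totals.

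The log2 odds ratio of Il13 with Arg1 stayed within its interval in all 18 alternatives. Of 326 values for ratios of the other members, 289 stayed within the interval, 36 moved and 1 turned its sign, Il5 for Ly6a-high over Ly6a-low at -0.0211 with the split at 10 UMIs. Of 161 values for the other pairs, 3 moved. Leaving out the barcode sequences found in both suffixes (28 kept barcodes, 3 in the ILC2 gate) moved no value out of its interval. No paired analysis was possible because no test was made and the barcodes carry no replicate number.

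With 1 library per stage, there was no spread between samples to set values against, and depth limits Il5, Il9 and the 18 mast-gate cells most. Thinned shares of Areg and Csf2 rest on few cells.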

Other observations

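Cells that passed more than 1 gate (145 cells) held Il13 at 72.2 CPM, Arg1 at 92.7 CPM and Il4 at 22.7 CPM, below the ILC2 gate in each case and above the NK/ILC1 gate. Within the mixed cluster, Il13 stood at 50.7 CPM, Arg1 at 28.6 CPM and Il4 at 16.1 CPM.

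Among other cytokine genes, Ltb, a membrane-bound lymphotoxin subunit, stood at 716 CPM in the ILC2 gate, against 252 CPM in the NK/ILC1 gate without the mixed cluster. Cxcl2, a neutrophil chemokine, stood at 33 and 0.41 CPM, and Il2 at 22.4 and 8.21 CPM in the ILC2 and NK/ILC1 gates. Tgfb1, at 139.5 and 139 CPM, was nearly level. Of 16 such genes, 10 were measured, of which 6 were at least 2-fold higher and 2 at least 2-fold lower in the ILC2 gate, with a median log2 ratio of 1.48, against -0.12 over all genes. In cells with and without Arg1, Cxcl2 stood at 53 and 29.6 thinned CPM, and the amino acid transporter gene Slc38a5 at 42.2 and 18.4 thinned CPM.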
